A study of Mus musculus with 2 samples.

Results

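The genes described here encode the translocases that bring proteins into mitochondria (Tomm genes of the outer membrane, Timm genes of the inner membrane and the space between the membranes) and the Slc25 carriers, most of which exchange metabolites across the inner membrane. They were taken by gene symbol from the annotated genes: 47 Slc25a, 10 Tomm and 15 Timm genes, 72 in all. Reads were found on 65 of them, out of 14900 annotated genes with reads. Replicate 2 had reads of 62 and replicate 1 of 61. No reads were listed for Slc25a2, Slc25a31, Slc25a41, Slc25a48, Slc25a54, Timm8a2 or Tomm20l.

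Long cDNA reads were counted per transcript model in gastrocnemius, a large muscle of the calf. Both libraries came from male mice of the strain B6CASTF1/J, a cross of C57BL/6J and CAST/EiJ, aged 18 to 20 months. Library preparation began with 2 µg of total RNA, and SIRV and ERCC spike-ins were added. The labels call them biological replicates 2 and 1 and give each its own biosample, under the same donor entry, so whether each stands for 1 animal is not given in the sources used here. There was 1 group and no second condition. The comparisons below therefore set replicate 2 against replicate 1 and describe these libraries.

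Nearly all mitochondrial proteins are made in the cytosol and enter through the TOM complex. Precursors with a cleavable presequence pass on through the TIM23 complex, while carriers are escorted by small Tim chaperones to the TIM22 complex, which inserts them into the inner membrane. The Slc25 carriers are thus both cargo of the import system and the exchangers that move ADP, ATP, phosphate, amino acids and cofactors. In skeletal muscle the ADP/ATP carrier Slc25a4 and the phosphate carrier Slc25a3 supply ATP synthase with its substrates.

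Slc25a3 has a pair of mutually exclusive exons in which long reads can be told apart, and both are shown because the exon choice is a result below. They lie on the minus strand of chromosome 10 (mm10), the upstream exon at chr10:91122207-91122331 with 125 bases (in Slc25a3-206) and the downstream exon at chr10:91121922-91122043 with 122 bases (in Slc25a3-201). Aligned to each other they share 84 bases. Capitals mark the bases that have no identical partner in the other exon.
Slc25a3 upstream exon: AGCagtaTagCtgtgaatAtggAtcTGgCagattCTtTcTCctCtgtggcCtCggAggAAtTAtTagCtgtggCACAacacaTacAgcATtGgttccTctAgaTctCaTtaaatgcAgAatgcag
Slc25a3 downstream exon: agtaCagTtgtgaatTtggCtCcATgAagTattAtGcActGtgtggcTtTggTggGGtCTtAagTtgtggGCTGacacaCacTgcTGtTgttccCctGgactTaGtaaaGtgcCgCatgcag

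Slc25a25 and Slc25a22 differed most between the libraries, and the promoters beside the first exons that their reads used are shown for that reason. The windows run from 250 bases before to 50 bases after a RefSeq gene start (GRCm38.p6), on the minus strand, at chr2:32424017-32424316 (Slc25a25 inner), chr2:32451421-32451720 (Slc25a25 outer) and chr7:141435326-141435625 (Slc25a22). Capitals mark the cyclic AMP response element, TGACGTCA, and the CCAAT box, CCAAT or ATTGG.
Slc25a25 inner promoter: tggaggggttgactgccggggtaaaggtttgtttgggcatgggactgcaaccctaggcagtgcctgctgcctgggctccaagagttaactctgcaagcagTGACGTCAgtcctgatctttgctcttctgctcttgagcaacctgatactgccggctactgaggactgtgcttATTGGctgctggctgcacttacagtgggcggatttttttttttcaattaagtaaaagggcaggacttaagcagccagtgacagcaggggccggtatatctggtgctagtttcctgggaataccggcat
Slc25a25 outer promoter: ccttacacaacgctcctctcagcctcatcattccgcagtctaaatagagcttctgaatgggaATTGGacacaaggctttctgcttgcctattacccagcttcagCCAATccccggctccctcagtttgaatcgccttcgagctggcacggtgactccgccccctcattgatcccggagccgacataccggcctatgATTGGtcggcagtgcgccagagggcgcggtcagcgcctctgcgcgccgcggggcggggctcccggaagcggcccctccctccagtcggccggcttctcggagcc
Slc25a22 promoter: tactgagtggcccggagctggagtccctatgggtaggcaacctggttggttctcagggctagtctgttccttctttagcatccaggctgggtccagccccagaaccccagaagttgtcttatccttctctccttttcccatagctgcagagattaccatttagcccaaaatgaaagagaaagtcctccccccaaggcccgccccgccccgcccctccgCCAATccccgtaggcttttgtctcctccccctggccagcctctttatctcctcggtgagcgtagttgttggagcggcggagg

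Together the import and carrier genes took 1.10% of all reads in replicate 2 (95% Clopper-Pearson interval 1.08 to 1.12%) and 1.18% in replicate 1 (1.16 to 1.19%). The mean was 1.14% ± 0.056 (SD, n = 2). The order of the libraries depended on the models counted. On annotated transcripts alone the share was 1.67% in replicate 2 and 1.55% in replicate 1. Intervals here and below cover counting error only. Each long read was counted once, so levels are given as reads per 1000000 reads of the library (CPM), without division by transcript length. The ratio between the libraries moved with length, as given below, and how far length bears on levels of different genes was not tested. On this scale 12 of the 65 genes with reads averaged 100 CPM or more, 30 lay from 10 to 100 CPM and 23 lay below 10 CPM. Among the 54 genes that reached 10 reads in sum, ordered by mean CPM, 50 of the 53 neighbouring pairs had overlapping values. Only Slc25a4 above Slc25a3, Slc25a3 above Slc25a12, and Timm22 above Tomm5 stood apart from the gene below them. This order used the values alone, and the 95% counting intervals of Timm22 and Tomm5 overlapped in both libraries. They were 25.8 to 48.4 against 20.8 to 41.5 CPM in replicate 2, and 24.6 to 43.7 against 24.0 to 42.9 CPM in replicate 1.

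**Figure D1:**
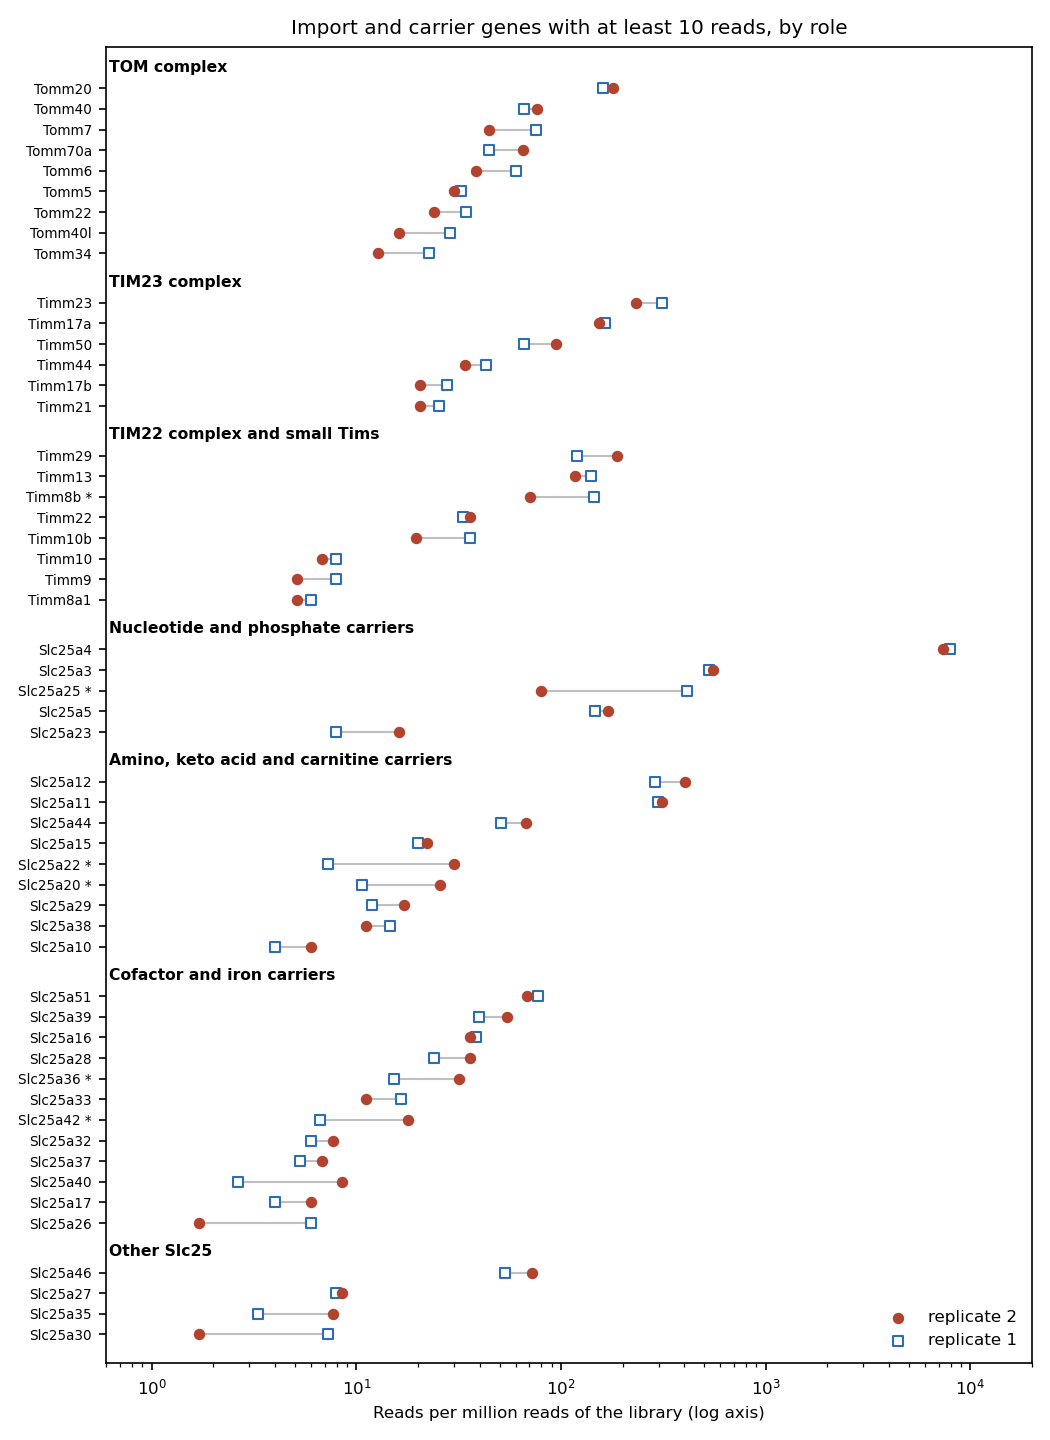
Level of import and carrier genes with 10 or more reads, in CPM (log axis), grouped by role; filled circles are replicate 2, open squares replicate 1, and asterisks mark the 6 genes that passed the test between the libraries. Slc25a4 lies at 7347 CPM in replicate 2 and 7932 CPM in replicate 1, far right of every other gene, and the widest gap between the symbols among the well read genes is that of Slc25a25.

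Replicate 2 held 1173233 reads and replicate 1 held 1509380, so 1 read was worth 0.852 CPM in replicate 2 and 0.663 CPM in replicate 1. Spike-in reads made up 0.590% of reads in replicate 2 and 2.71% in replicate 1. The 6 skeletal muscle markers (Acta1, Ckm, Mylpf, Tnnt3, Des and Mb) had a summed level of 101381 CPM in replicate 2, against 135393 CPM in replicate 1. They went both ways by the test described below: Mb was called higher (log2 ratio 1.31), Mylpf was called lower (−1.47), and the other 4 were not called. The libraries differed in fibre markers: all 8 genes of slow fibres were higher in replicate 2 (4917 CPM in sum, against 386 CPM in replicate 1), as were Myh2 and Myh1 of type 2A and 2X fibres (7977 CPM in replicate 2, against 1260 CPM in replicate 1). Endothelial markers were higher for 3 of 5 genes (102 CPM in replicate 2, against 37.8 CPM in replicate 1), and white adipocyte markers for 1 of 3 tested (74.2 CPM in replicate 2, against 37.1 CPM in replicate 1). None of 4 fibroblast markers was called (655 CPM in replicate 2, against 618 CPM in replicate 1), nor any of the 4 blood markers tested (124 CPM in replicate 2, against 206 CPM in replicate 1). Of 4 immune markers only Cd74 was tested, and it was lower (14.5 CPM for the list in replicate 2, against 35.1 CPM in replicate 1), and the 3 liver markers had 5 reads in replicate 2 and none in replicate 1. Centred on length, 1 of the 5 endothelial markers kept its call, and Cd74 was not called (log2 ratio −0.88). Of the brown adipocyte markers, Ucp1 and Elovl3 had no reads in either library and Cidea had 1 read in each. Long transcripts also had higher ratios: over 8625 genes with a length, the log2 ratio of replicate 2 over replicate 1 and the length of the most read transcript gave a Spearman rho of 0.49, as a description across genes of the same libraries. In bulk tissue, fewer cells of a type and less RNA per cell cannot be told apart, and the part of fibre markers, length and spike-ins in the gene results below was not tested.

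The libraries were compared gene by gene with Fisher's exact test, each gene's reads being set against the rest of its library. P-values were adjusted over all 9032 genes that reached 10 reads in sum. A gene counted as called when its adjusted p lay below 0.05 and the libraries differed 2-fold or more. Of the 54 import and carrier genes tested, 4 were higher in replicate 2 (Slc25a36, Slc25a22, Slc25a20 and Slc25a42), 2 were lower (Slc25a25 and Timm8b), and 48 were not called. Over all genes tested, 10.3% were called, 8.24% as higher and 2.04% as lower. The count of import and carrier genes called, 6 of 54, thus lay near that background. Their median log2 ratio, on the log2(CPM + 1) scale, was 0.07 (quartiles −0.42 and 0.48), against 0.19 over all genes tested.

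The split of these calls moved with the scaling. Scaling by TMM or by DESeq2's size factors shifted log2 ratios down by 0.20, and by less for genes of low CPM, and then 1 gene was higher (Slc25a22) and 3 were lower (Slc25a25, Timm8b and Timm10b). Over all genes tested, 9.07% were called with TMM and 9.12% with DESeq2's size factors, so the count of 4 of 54 lay near the background here too. The split over all genes moved as well, with 443 genes higher and 376 lower with TMM, against 744 higher and 184 lower on total reads. These scalings go with an exact binomial test; on total reads that test made 4 higher and 2 lower calls among import and carrier genes. After centring on transcript length, which left 4.68% of all genes called, 2 were higher (Slc25a22 and Slc25a20) and 3 were lower (Slc25a25, Timm10b and Tomm40l). Slc25a25 was called lower and Slc25a22 higher under each of these scalings.

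**Figure D2:**
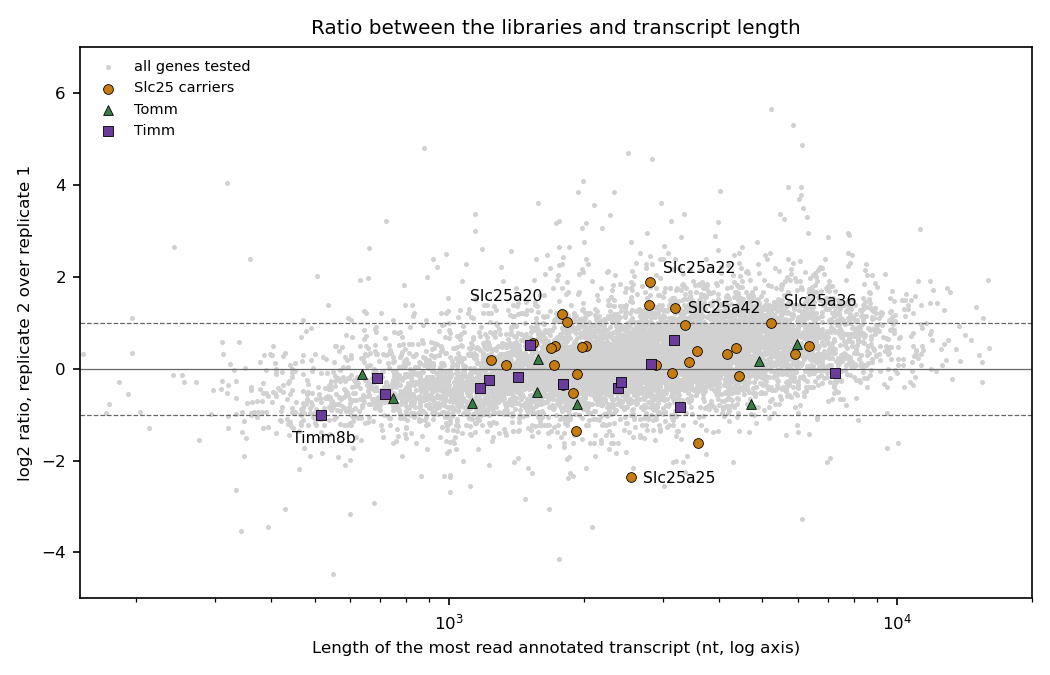
Log2 ratio of replicate 2 over replicate 1 against length (nt, log axis) of the annotated transcript with most reads, with all genes tested in grey, Slc25 carriers as circles, Tomm genes as triangles and Timm genes as squares; dashed lines mark 2-fold. The grey cloud climbs with length, the short Timm8b lies at its lower left, and Slc25a25 lies below the cloud at its length.

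The outer membrane translocase was read at modest levels and none of its tested genes was called. Tomm20, the receptor for presequences, led with 179 CPM in replicate 2 and 160 CPM in replicate 1 (mean 170 ± 13.2, SD, n = 2). Its log2 ratio was 0.16 and, centred on length, −0.42 (adjusted p = 0.0232 by an exact binomial test). Tomm70a, the receptor that takes carrier precursors from cytosolic chaperones, had 64.8 CPM in replicate 2, against 44.4 CPM in replicate 1, and Tomm22, the central receptor, had 23.9 CPM in replicate 2 and 34.5 CPM in replicate 1. The receptors thus ranged over several fold, with Tomm20 above the other two in each library.

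Tomm40, the barrel that forms the pore, had 89 reads (75.9 CPM) in replicate 2 and 99 reads (65.6 CPM) in replicate 1. Its paralogue Tomm40l had 19 reads (16.2 CPM) in replicate 2 and 43 reads (28.5 CPM) in replicate 1, below Tomm40 in each library. The log2 ratio of Tomm40l was −0.78 (adjusted p = 0.138 by Fisher's exact test). Centred on length it was −1.36 (adjusted p = 0.00448 by an exact binomial test). In replicate 1, 6 of the Tomm40l reads lay in 1 genomic model with a listed length of 1 nt. On annotated transcripts alone the log2 ratio was −0.13 (adjusted p = 0.965 by Fisher's exact test). Tomm40l lies opposite Nr1i3 over 3304 bases, and Nr1i3 had no reads.

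The small subunits Tomm7, Tomm6 and Tomm5 had 44.3, 38.4 and 29.8 CPM in replicate 2 and, in the same order, 75.5, 60.3 and 32.5 CPM in replicate 1. Each had its lower value in replicate 2, and Tomm7 had a log2 ratio of −0.76 (adjusted p = 0.00936 by Fisher's exact test, under 2-fold). Their most read transcripts are short, 1125, 749 and 639 nt. Centred on length, Tomm7 had a log2 ratio of −0.44 (adjusted p = 0.282 by an exact binomial test). Tomm6 shares 859 bases of its strand with Gm21981, which had 1 read in replicate 2 and 3 in replicate 1. Reads within these bases may belong to either gene, and how many do was not tested. Tomm34, a cytosolic co-chaperone named for this family, had 12.8 CPM in replicate 2 and 22.5 CPM in replicate 1.

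The TIM23 complex was led by its channel and the more read of the Timm17 paralogues. Timm23, the channel, had 273 reads (233 CPM) in replicate 2 and 471 reads (312 CPM) in replicate 1. Its log2 ratio of −0.42 had an adjusted p of 0.00106 by Fisher's exact test and stayed under 2-fold. Centred on length the ratio was −0.10 (adjusted p = 0.688 by an exact binomial test). A near-identical gene, Gm10273, aligned to 99.9% identity and had 5 reads in replicate 2 and 8 in replicate 1. Reads may thus be split between it and Timm23, and how many are was not tested.

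Timm17a, the channel partner, had 153 CPM in replicate 2, against 164 CPM in replicate 1, and its paralogue Timm17b had 20.5 CPM in replicate 2 and 27.8 CPM in replicate 1. The levels of these paralogues did not overlap: Timm17a was several fold above Timm17b in each library. The log2 ratio of Timm17a was −0.09 on total reads. Centred on length it was −0.84 (adjusted p = 8.37e-08 by an exact binomial test), under 2-fold. Timm50, the receptor facing the space between the membranes, had 94.6 CPM in replicate 2 and 65.6 CPM in replicate 1 (log2 ratio 0.52, adjusted p = 0.0406 by Fisher's exact test, under 2-fold). Timm44, which anchors the import motor, had 34.1 CPM in replicate 2, against 43.1 CPM in replicate 1, and Timm21, which links the complex to TOM, had 20.5 CPM in replicate 2 and 25.2 CPM in replicate 1. None of the 6 genes was called.

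The carrier translocase and its chaperones held 1 of the 6 calls. Timm29, a TIM22 subunit, was the most read of the 3 TIM22 genes, with 219 reads (187 CPM) in replicate 2 and 181 reads (120 CPM) in replicate 1. Its log2 ratio was 0.63 (adjusted p = 0.000143 by Fisher's exact test), under 2-fold. Centred on length it was 0.34 (adjusted p = 0.123 by an exact binomial test). Timm22, the channel, had 35.8 CPM in replicate 2 and 33.1 CPM in replicate 1, values that nearly coincide. Timm10b, the small Tim bound to this complex, had 23 reads (19.6 CPM) in replicate 2 and 54 reads (35.8 CPM) in replicate 1, a log2 ratio of −0.84 with an adjusted p of 0.0665 by Fisher's exact test. It shares 376 bases of its strand with Gm45799, which had 1 read in replicate 2 and 3 in replicate 1.

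Timm8b, a small Tim chaperone, fell to 83 reads (70.7 CPM, 95% interval 56.3 to 87.7) in replicate 2, against 218 reads (144 CPM, 126 to 165) in replicate 1. Its log2 ratio was −1.02, with a counting interval of −1.41 to −0.66 and an adjusted p of 2.13e-07 by Fisher's exact test, just past the 2-fold limit. Timm8b has the shortest most read transcript of all import and carrier genes, 518 nt. After centring on length its log2 ratio was −0.48 (adjusted p = 0.0641 by an exact binomial test) and it was not called; with annotated transcripts alone it was −0.91, under 2-fold.

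Among the other small Tims, Timm13 had 137 reads (117 CPM) in replicate 2 and 211 reads (140 CPM) in replicate 1. Its partner in the known complex, Timm8a1, had 6 reads in replicate 2 and 9 in replicate 1, with Timm8b far above it in each library. Timm10 had 8 reads in replicate 2, against 12 in replicate 1 and Timm9, with which it forms the other small Tim complex, had 6 reads in replicate 2 and 12 in replicate 1. The small Tims therefore fell into well read members (Timm13 and Timm8b) and members at the edge of detection (Timm10, Timm9 and Timm8a1). Timm8a2 had no reads.

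Taking all Tomm and Timm genes, 17 of the 23 tested had a log2 ratio below 0 and 6 had one above 0, with a median of −0.29. Of the 31 Slc25 carriers tested, 22 lay above 0 and 9 below, with a median of 0.32. Over all genes tested, 5541 lay above 0 and 3491 below. With TMM the carriers split into 17 above and 14 below, and centred on length into 16 above and 15 below. Tomm genes split into 2 above and 7 below under both. Timm genes split into 2 above and 12 below with TMM, and into 4 above and 10 below centred on length. The median length of the most read transcript was 1577 nt for Tomm and Timm genes and 2541 nt for the carriers. Centred on length, the medians were −0.42 for Tomm, −0.11 for Timm and 0.02 for the carriers. The difference between these families was not tested.

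Slc25a4, the ADP/ATP carrier of heart and skeletal muscle, took 67.0% of the reads of import and carrier genes in replicate 2 and 67.5% in replicate 1. It had 8620 reads (7347 CPM) in replicate 2 and 11972 reads (7932 CPM) in replicate 1, which placed it 9th of all genes in replicate 2 and 12th in replicate 1. Its mean of 7639 ± 413 CPM (SD, n = 2) was 14.1 times that of Slc25a3 and 48.4 times that of Slc25a5, the more widely expressed ADP/ATP carrier. On spliced reads alone these ratios were 12.8 and, for Slc25a5, 116, as most Slc25a5 reads lay in models without a splice junction. Those models are short 3′ pieces, which were not shown to come from unspliced RNA. The log2 ratio of Slc25a4 was −0.11 (adjusted p = 1.06e-06 by Fisher's exact test), far under 2-fold.

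Slc25a5 had 198 reads (169 CPM) in replicate 2 and 222 reads (147 CPM) in replicate 1. Its log2 ratio was 0.20 and, centred on length, 0.51 (adjusted p = 0.00441 by an exact binomial test). Slc25a31, the ADP/ATP carrier of the germ line, had no reads. Of 3 testis markers Prm1 had 2 reads in replicate 2 and none in replicate 1, and Prm2 and Tnp1 had none in either. The ADP/ATP carriers thus ranked Slc25a4, Slc25a5 and Slc25a31 in both libraries, and the first was above the second by more than the spread between libraries.

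Many Slc25a5 reads were not full transcripts. The spliced transcript Slc25a5-201 took 72 of 198 reads (36.4%) in replicate 2 and 78 of 222 reads (35.1%) in replicate 1. The remainder was mostly 1 model without a splice junction at the 3′ end of the gene, of 255 nt with 125 reads in replicate 2 and of 421 nt with 141 reads in replicate 1. Counting spliced reads alone, Slc25a5 had 62.2 CPM in replicate 2 and 53.7 CPM in replicate 1. Slc25a5 has 7 copies of at least 90% identity elsewhere in the annotation, 6 of them pseudogenes, and none of the 7 had a read.

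Such 3′ pieces also bore on Slc25a4. Models without a splice junction held 705 of its reads (8.18%) in replicate 2 and 1898 (15.9%) in replicate 1. Spliced Slc25a4 reads alone gave 6746 CPM in replicate 2, against 6674 CPM in replicate 1, a mean of 6710 ± 50.9 (SD, n = 2). On spliced reads the order of the libraries was thus the reverse of that on all reads, and the gap between them was smaller.

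**Figure D3:**
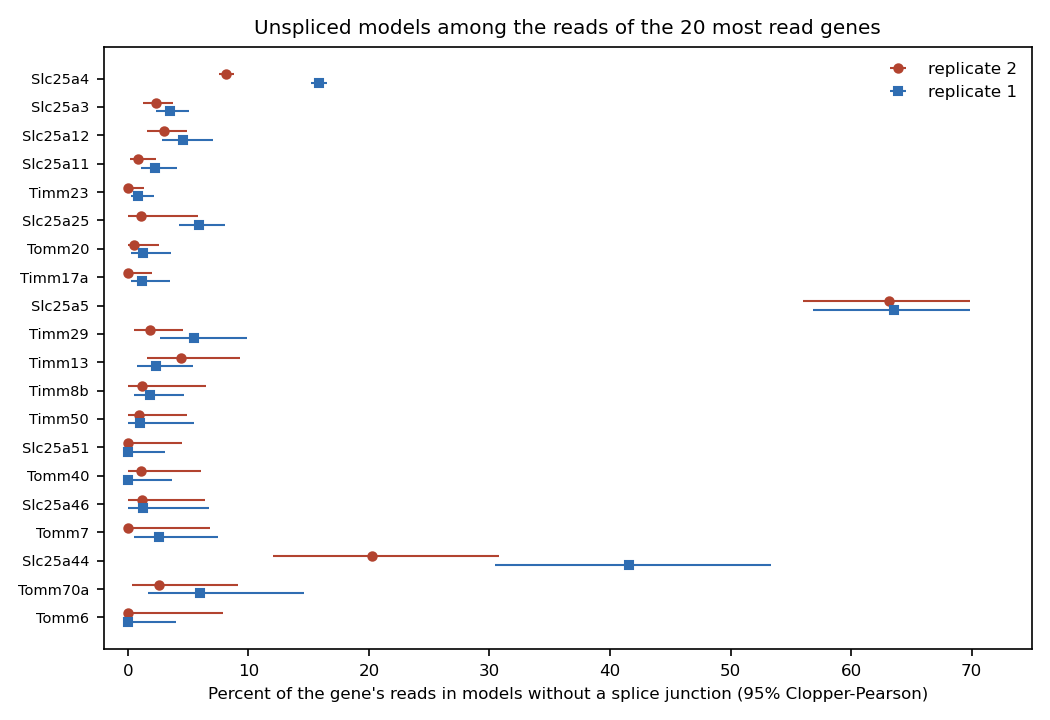
Percent of each gene's reads that lay in unannotated models without a splice junction, for the 20 most read genes in order of level, with 95% Clopper-Pearson intervals; circles are replicate 2 and squares replicate 1. Slc25a5 lies above 60% in both libraries, Slc25a44 at 20.3% in replicate 2 and 41.6% in replicate 1, Slc25a4 at 8.18% in replicate 2 and 15.9% in replicate 1, and the other 17 genes below 7%.

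Slc25a3, the phosphate carrier, had 649 reads (553 CPM) in replicate 2 and 796 reads (527 CPM) in replicate 1, a mean of 540 ± 18.2 CPM (SD, n = 2). The upstream exon printed above was in nearly every read that could be assigned. It was in 607 reads and the downstream exon in 8 reads of replicate 2, a share of 98.7% (95% Clopper-Pearson interval 97.5 to 99.4%). In replicate 1 the upstream exon was in 725 reads and the downstream exon in 15, a share of 98.0% (96.7 to 98.9%).

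The share averaged 98.3% ± 0.514 (SD, n = 2), and the libraries did not differ detectably (p = 0.399, two-sided Fisher's exact test). No read held both exons, while 34 reads in replicate 2 and 56 in replicate 1 covered neither. The upstream exon is known as the form of heart and skeletal muscle, the downstream exon as that of other tissues. The full transcript Slc25a3-206 took 84.3% of the gene's reads in replicate 2 and 84.0% in replicate 1.

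**Figure D4:**
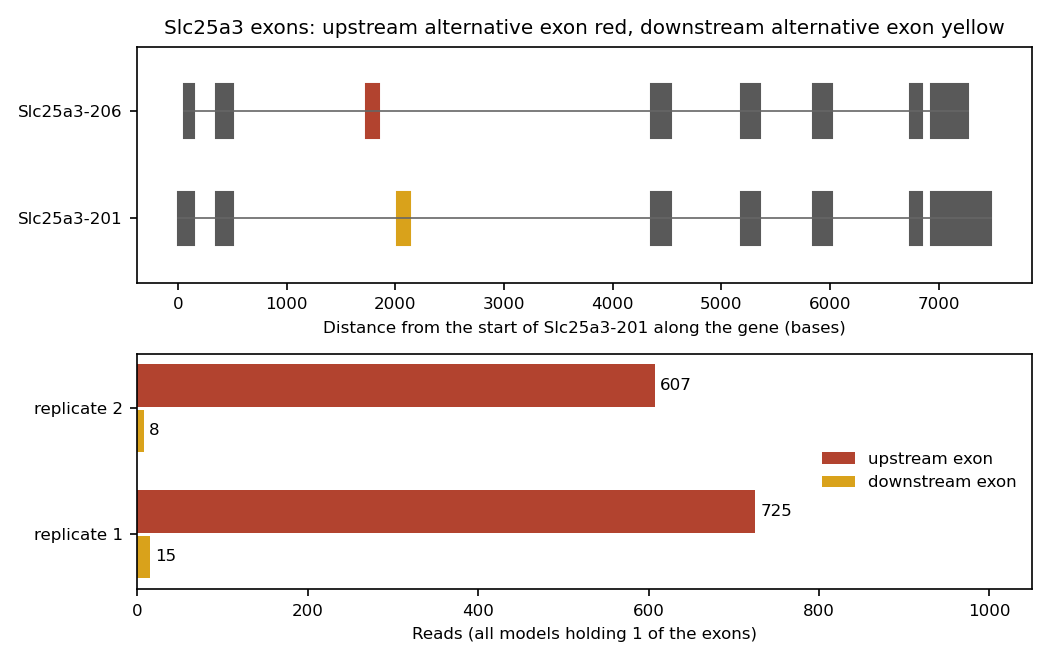
Top, exons of the 2 Slc25a3 transcripts drawn to scale as distance from the start of Slc25a3-201 in bases, with the upstream alternative exon in red and the downstream one in yellow. Bottom, reads holding each exon: 607 upstream and 8 downstream in replicate 2, 725 upstream and 15 downstream in replicate 1.

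The carriers of ATP-Mg and phosphate, which change the adenine nucleotide pool of the matrix, held the widest gap of all. Slc25a25 fell to 94 reads (80.1 CPM, 95% interval 64.7 to 98.0) in replicate 2, against 622 reads (412 CPM, 380 to 446) in replicate 1. The log2 ratio was −2.35, with a counting interval of −2.69 to −2.05 and an adjusted p of 1.18e-67 by Fisher's exact test. The gene ranked 1444th of all genes in replicate 2 and 202nd in replicate 1, so its mean of 246 ± 235 CPM (SD, n = 2) describes neither library. It was called lower under all 11 alternatives run, at log2 ratios of −2.54 with TMM and −2.51 centred on length.

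The other carriers of this kind were low. Slc25a23 had 19 reads (16.2 CPM) in replicate 2 and 12 reads (7.95 CPM) in replicate 1, and most of them, 12 reads in replicate 2 and 9 in replicate 1, came from 1 incomplete model that lacked the 3′ part. Slc25a24 had 1 read in each library, under the 3 reads that a count of 0 allows, and Slc25a41 had none. In replicate 1 Slc25a25 was therefore the most read of this group by a wide margin, and in replicate 2 by a smaller one.

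Reads of Slc25a25 were mostly full length. Slc25a25-203, a transcript of 10 exons and 2541 nt, took 79 of 94 reads (84.0%) in replicate 2 and 473 of 622 reads (76.0%) in replicate 1. The change in share, 8.0 points, did not pass the test (adjusted p = 0.599 by Fisher's exact test). This transcript alone had 67.3 CPM in replicate 2 and 313 CPM in replicate 1. Replicate 1 also held 37 reads in a genomic model of 1526 nt at the 3′ end that had 1 or no read in replicate 2.

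The inner first exon of Slc25a25 was used in both libraries. Its donor, at position 32423794 of chromosome 2, ended the first exon in 93.4% of 91 full models' reads in replicate 2 and 95.2% of 539 in replicate 1. The outer first exon, ending at 32451067, took 5.49% in replicate 2 and 2.23% in replicate 1. The inner first exon thus held over 90% of these reads in each library.

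**Figure D5:**
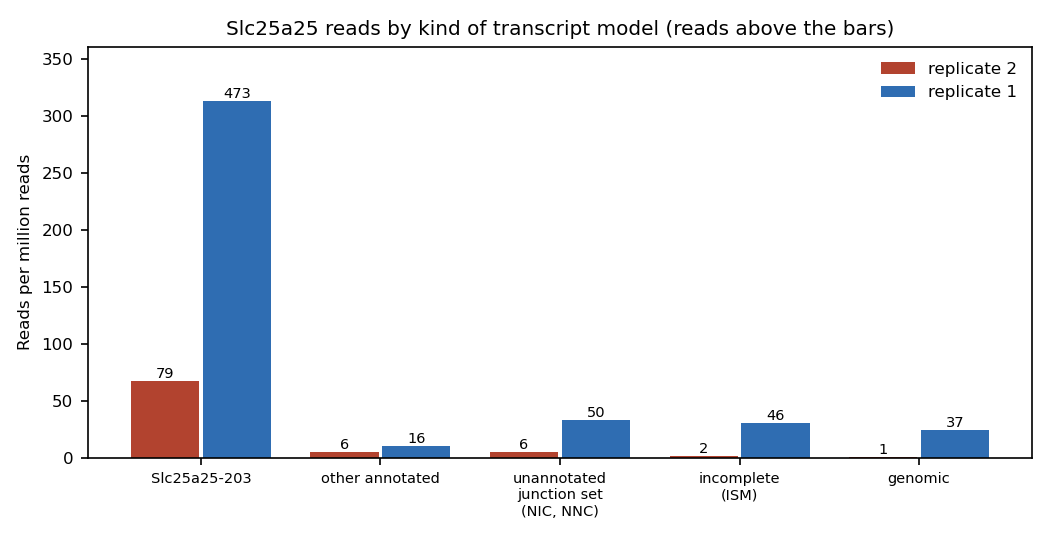
Slc25a25 CPM by kind of transcript model, with read counts above the bars; red bars are replicate 2 and blue bars replicate 1. Slc25a25-203 holds 79 reads in replicate 2 and 473 in replicate 1, most of the gene's reads in each library.

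The inner promoter of Slc25a25 printed above held TGACGTCA from 150 to 143 bases before the RefSeq start, and ATTGG 78 to 74 bases before it. The outer promoter held CCAAT boxes only. Both strands were searched, and a match is a description of these letters. TGACGTCA was found in 2.86% of the 70 windows of import and carrier genes, namely those of Slc25a25 and Slc25a36, against 1.79% of all 32851 promoter windows. CCAAT or ATTGG was found in 41.4% of the windows of import and carrier genes, against 37.4% of all windows. The ETS element, CCGGAAGT, stood in 7 of the 70 windows of import and carrier genes (among them Timm23, Timm29, Timm10b and Tomm70a), against 3.89% of all windows. The element of the ERR receptors, TCAAGGTCA, was in the window of Timm8b, 1.43% of windows, against 0.423% overall. The NRF1 element was in 5.71% of windows of import and carrier genes, against 4.60% of all windows, and the TATA box, TATAAA, in 5.71% of windows of import and carrier genes, against 13.6% of all. RefSeq windows matched 53 of the 65 genes with reads.

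Among the carriers of the malate-aspartate shuttle, which moves reducing power from the cytosol into mitochondria, levels were high. Slc25a12, the aspartate/glutamate carrier of muscle and brain, had 471 reads (401 CPM) in replicate 2 and 433 reads (287 CPM) in replicate 1. Its log2 ratio was 0.48 (adjusted p = 7.98e-06 by Fisher's exact test), under 2-fold. Centred on length it was −0.20 (adjusted p = 0.222 by an exact binomial test). Slc25a11, the oxoglutarate/malate carrier, had 312 CPM in replicate 2, against 296 CPM in replicate 1 and did not differ detectably (adjusted p = 0.717 by Fisher's exact test). Slc25a13, the liver form of the aspartate/glutamate carrier, had 1 read in replicate 2 and none in replicate 1. The muscle form thus held nearly all reads of that pair.

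Slc25a22, a glutamate carrier, was higher in replicate 2, with 35 reads (29.8 CPM, 95% interval 20.8 to 41.5) against 11 reads (7.29 CPM, 3.64 to 13.0) in replicate 1. The log2 ratio was 1.90, with a counting interval of 1.02 to 3.16 and an adjusted p of 0.000132 by Fisher's exact test. Slc25a22 was not called with a fold of 4 and was not tested with a minimum of 50 reads. On annotated transcripts alone it had 5 reads in replicate 2 and 3 in replicate 1, too few to be tested. Most of its reads were not of an annotated transcript. A model of 10 exons and 2536 nt that joins annotated splice sites in an unannotated combination held 16 of 35 reads in replicate 2 and 3 of 11 in replicate 1, against 2 reads of Slc25a22-201 in each. Its first exon ended at position 141435288 of chromosome 7, as did that of 65.5% of 29 full models' reads in replicate 2 and 62.5% of 8 in replicate 1. This is the exon beside the Slc25a22 promoter printed above, which held CCAAT 32 to 28 bases before its start. The other glutamate carrier, Slc25a18, had 1 read in replicate 2 and none in replicate 1.

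Slc25a20, which exchanges carnitine and acylcarnitines for fatty acid oxidation, was higher in replicate 2 with 30 reads (25.6 CPM) against 16 reads (10.6 CPM) in replicate 1. Its log2 ratio was 1.20 (counting interval 0.35 to 2.24, adjusted p = 0.0245 by Fisher's exact test). With TMM scaling it was 1.01 and the adjusted p was 0.079 by an exact binomial test. The call was also lost without incomplete and genomic models (0.94, adjusted p = 0.132 by Fisher's exact test), with replicate 1 thinned to the depth of replicate 2 (0.95, adjusted p = 0.134 by Fisher's exact test) and with a pseudocount of 5 (0.97).

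Other carriers of amino and keto acids were not called. Slc25a44, a carrier of branched-chain amino acids, had 79 reads (67.3 CPM) in replicate 2 and 77 reads (51.0 CPM) in replicate 1, but 16 of these in replicate 2 and 32 in replicate 1 lay in 1 genomic model with a listed length of 2 nt. Without models that lack a splice junction it had 53.7 CPM in replicate 2 and 29.8 CPM in replicate 1. Slc25a15, an ornithine carrier, had 22.2 CPM in replicate 2 and 19.9 CPM in replicate 1, Slc25a29, a carrier of basic amino acids, had 17.0 CPM in replicate 2, against 11.9 CPM in replicate 1, and Slc25a38, a glycine carrier needed for haem synthesis, had 11.1 CPM in replicate 2 and 14.6 CPM in replicate 1. The dicarboxylate carrier Slc25a10 had 7 reads in replicate 2 and 6 in replicate 1, the citrate carrier Slc25a1 had 1 read in replicate 2, against 2 in replicate 1, and Slc25a21 had 1 read, in replicate 1.

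The cofactor and nucleotide carriers held a further 2 calls, both on few reads. Slc25a36, a pyrimidine nucleotide carrier, had 37 reads (31.5 CPM) in replicate 2 and 23 reads (15.2 CPM) in replicate 1, a log2 ratio of 1.00 (counting interval 0.26 to 1.87, adjusted p = 0.032 by Fisher's exact test). It was the gene just inside the 2-fold limit. Slc25a42, a carrier of coenzyme A, had 21 reads (17.9 CPM) in replicate 2 and 10 reads (6.63 CPM) in replicate 1, a log2 ratio of 1.31 (counting interval 0.28 to 2.68, adjusted p = 0.0481 by Fisher's exact test). Neither was called with TMM (adjusted p = 0.112 for Slc25a36 and 0.117 for Slc25a42, by an exact binomial test) or centred on length (log2 ratios 0.38 for Slc25a36 and 0.96 for Slc25a42).

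The most read of this class was Slc25a51, a carrier of NAD. It had 80 reads (68.2 CPM) in replicate 2 and 116 reads (76.9 CPM) in replicate 1. Its log2 ratio was −0.17 and, centred on length, −0.67 (adjusted p = 0.0151 by an exact binomial test). Slc25a39, a glutathione carrier, had 54.6 CPM in replicate 2 and 39.8 CPM in replicate 1, well above its paralogue Slc25a40 with 8.52 CPM in replicate 2 and 2.65 CPM in replicate 1. Slc25a16 had 35.8 CPM in replicate 2 and 38.4 CPM in replicate 1. Slc25a33, the other pyrimidine nucleotide carrier, had 11.1 CPM in replicate 2 and 16.6 CPM in replicate 1. Slc25a32, Slc25a17 and Slc25a26 each had 10 reads or fewer per library.

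Of the mitoferrins, which bring iron into mitochondria, Slc25a28 had 42 reads (35.8 CPM) in replicate 2 and 36 reads (23.9 CPM) in replicate 1. Slc25a37, the form of erythroid cells, had 8 reads in each. Slc25a46, an outer membrane protein of this family linked to membrane dynamics, had 85 reads (72.4 CPM) in replicate 2 and 80 reads (53.0 CPM) in replicate 1. The relatives of the uncoupling proteins were scarce: Slc25a27 had 10 reads in replicate 2 and 12 in replicate 1, Slc25a30 had 2 reads in replicate 2, against 11 in replicate 1, and Slc25a14 had 2 reads in replicate 2 and 6 in replicate 1. Of the remaining members, Slc25a35 had 9 reads in replicate 2 and 5 in replicate 1, while Slc25a34, Slc25a43, Slc25a45, Slc25a47 and Slc25a53 had at most 4 in either library.

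No difference in transcript choice within import and carrier genes passed the test. The share of the most read annotated transcript among a gene's reads was tested by Fisher's exact test in the 33 of these genes that reached 20 reads per library. None was called, which took an adjusted p below 0.05 and a gap of 10 points or more. The background was 1.70% of 4458 genes. At an unadjusted p below 0.05 there were 3, Slc25a4, Slc25a11 and Slc25a12, and 1 kept an adjusted p below 0.05. Over all genes tested 9.96% lay below the unadjusted and 2.42% below the adjusted threshold, so neither count stood out. The gene with the adjusted p was Slc25a4. Its only annotated transcript with reads took 90.8% in replicate 2 and 83.2% in replicate 1, the gap left by the models without a splice junction above.

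Most of these genes were read through 1 dominant transcript. Timm23-201, Tomm20-201, Timm8b-201, Slc25a51-201 and Tomm7-201 each took over 95% of their gene's reads in both libraries. Reads of annotated transcripts made up 89.4% of all reads of import and carrier genes in replicate 2 and 84.0% in replicate 1. Without Slc25a4, which held most of these reads, the share was 86.6% in replicate 2 and 85.8% in replicate 1. Over all genes tested it was 60.9% in replicate 2 and 64.3% in replicate 1. Of the unannotated splice patterns, 1 of 82 new combinations of known splice sites and 1 of 156 patterns with a new splice site had 5 reads in each library. These were a Slc25a11 model of 1609 nt with 6 reads in replicate 2 and 9 in replicate 1, whose first exon lies upstream of that of Slc25a11-201, and a Slc25a4 model of 1326 nt with 14 reads in replicate 2 and 15 in replicate 1. Spliced incomplete models that reached 5 reads per library numbered 7 of 119, the most read being Slc25a4 with 42 reads in replicate 2 and 66 in replicate 1 and Slc25a3 with 47 reads in replicate 2 and 41 in replicate 1.

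Genes that work with the import system and the carriers, were taken from 7 lists. Of 59 tested, 3 were higher in replicate 2 and 1 was lower, beside the 10.3% called over all genes tested. With TMM scaling 7 were called, beside 9.07% over all genes. The lower gene was Romo1, a small inner membrane protein tied to TIM23, with 51.1 CPM in replicate 2 and 120 CPM in replicate 1 (log2 ratio −1.21, adjusted p = 3.94e-08 by Fisher's exact test). The higher genes were Hk2, a hexokinase of the outer membrane, with 260 CPM in replicate 2 and 105 CPM in replicate 1, Ppargc1a, a coactivator of mitochondrial genes, with 36.7 CPM in replicate 2, against 12.6 CPM in replicate 1, and Gabpa, a factor that binds the ETS element, with 42.6 CPM in replicate 2 and 19.9 CPM in replicate 1. Romo1 has a transcript of 569 nt and the other three have transcripts of 4987 nt or more. Centred on length, none of the 4 was called, and 1 other gene was, Dnajc15, a relative of the import motor subunit Dnajc19 (log2 ratio −1.28).

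By list, none of 5 other genes of outer membrane import was called, and the most read was Mtch1 with 117 CPM in replicate 2 and 104 CPM in replicate 1. Of 15 genes of the import motor and presequence processing, 1 was called, and the most read was Hspa9, the motor's Hsp70, with 422 CPM in replicate 2 and 293 CPM in replicate 1. None of 6 genes of the relay in the space between the membranes was called, with Chchd10 at 615 CPM in replicate 2 and 829 CPM in replicate 1. None of 9 matrix chaperone and protease genes was called, with Hspd1 at 277 CPM in replicate 2 and 222 CPM in replicate 1.

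None of 10 other carriers of the inner membrane was called. Ucp3, the uncoupling protein of skeletal muscle, was not the most read of them, with 55.4 CPM in replicate 2 and 103 CPM in replicate 1. Of 8 partners of ADP/ATP exchange, 1 was called, with Atp5b, the catalytic subunit of ATP synthase, at 2409 CPM in replicate 2 and 2573 CPM in replicate 1. The 8 partners had a summed level of 7601 CPM in replicate 2, against 6986 CPM in replicate 1, beside 7347 CPM in replicate 2 and 7932 CPM in replicate 1 for Slc25a4 alone. Of 6 regulators tested, 2 were called, and Esrra was the most read with 217 CPM in replicate 2 and 184 CPM in replicate 1.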

How the data were processed

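Per the labels, 2 libraries of long cDNA reads from gastrocnemius were analysed. Each deposited table listed raw read counts by transcript model; the README files deposited beside them say that the authors counted from filtered alignments on mm10, using GENCODE M21. The deposited annotations name TALON as their source. TALON classes a model as known, as an incomplete splice match (ISM), as known splice sites newly combined (NIC), as holding a new splice site (NNC) or as genomic. The deposited length, exon number and class columns, and the exon coordinates of the annotations, were used as given, per the file headers. No source used here names the aligner, platform or versions.

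For each annotated gene, counts of all model classes were added up, with 1173233 reads in replicate 2 and 1509380 in replicate 1, and scaled to 1000000 reads (CPM). A count of 0 allows up to 3 reads, 2.56 CPM in replicate 2 and 1.99 CPM in replicate 1. Genes reaching 10 reads in sum were compared by Fisher's exact test (two-sided) with Benjamini-Hochberg adjustment over all genes tested, called at an adjusted p below 0.05 and 2-fold on log2(CPM + 1), which understates the ratio of low genes. Log2 ratios are replicate 2 over replicate 1. The p-values measure counting error between these libraries, have no replicate check and do not speak for conditions. The test was also run on simulated counts that held only counting error and set fold changes. That run does not speak to other differences between these libraries, such as the trend with length. Intron chains served to match models between libraries. Slc25a3 exons were compared by global alignment, and copies of the genes were sought with blastn (2.17.0) at 90% identity over 300 nt.

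The genes and lists were chosen with earlier results of these data known. Named genes are the 20 most read, every gene called, the partners within each complex, and for the 7 pathway lists every gene called and the most read gene; Ucp3 and Dnajc15 were named after their values were seen, as were the genes of a few reads given to account for every member. A pair of genes is not reported here but stays in the counts. Alternatives changed the scaling (TMM from edgeR 4.0.16, DESeq2 1.42.0 size factors, or the median of 20 length bins, each with an exact binomial test), the read minimum, fold, pseudocount, model classes, depth and the libraries used. Promoter sequences are RefSeq's, on GRCm38.p6. Scripts ran in R 4.3.3 and Python 3.11.15 with scipy 1.17.1, pandas 2.3.3, numpy 2.4.6 and Biopython 1.88.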

Additional observations from a re-analysis of the deposited data

Results flagged for a closer look

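Antisense models, which none of the comparisons use, lay opposite 20 of the import and carrier genes, and opposite 2 of them their summed reads exceeded the 3 reads that a count of 0 allows in both libraries. Opposite Slc25a3 there were 7 antisense reads in replicate 2 and 5 in replicate 1, beside 649 sense reads in replicate 2 and 796 in replicate 1, all at 1 locus in each library. Opposite Slc25a12 there were 7 antisense reads in replicate 2 and 5 in replicate 1, beside 471 sense reads in replicate 2 and 433 in replicate 1. These were spread over 5 loci in replicate 2 and 4 in replicate 1, and no single locus held more than 3 reads. There were no control samples to compare them with.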

How the results depend on the processing

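Against 6 calls among import and carrier genes, 3 were made with a minimum of 50 reads and 1 with a fold of 4. A pseudocount of 5 gave 2, the deeper library thinned gave 3, and the other planned settings gave 4 or 5. The exact binomial test on total reads, chosen after seeing the data, gave 6. Over all genes, the minimum of 50 reads left 430 called higher and 128 lower of 4627 tested. A fold of 4 left 162 higher and 39 lower of 9032. A pseudocount of 5 left 593 higher and 151 lower of 9032. With the deeper library thinned, 638 were higher and 197 lower of 8719. Among the pathway genes, against 4 calls, TMM and DESeq2 scaling each gave 7, centring on length 1 and a fold of 4 gave 0. The cause of these changes was not tested, except that a higher minimum or fold admits fewer genes by construction. The read share was 1.61% on annotated transcripts alone, against 1.14%, and 1.10 to 1.18% with either library left out. The Slc25a3 exon share was 98.0 to 98.7% with either library left out. No isoform call appeared in any of 4 alternatives. Over 43 named genes, 37 of 466 log2 comparisons lost a call, 6 gained one and none of the called genes changed sign; among uncalled genes, 6 changed sign with TMM and 8 when centred on length. No paired analysis was possible because there is 1 group. With 2 libraries, counts near 10 reads can show only wide gaps.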

Other observations

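Antisense reads were also listed opposite Slc25a17, with 10 in replicate 2 and 2 in replicate 1, beside 7 sense reads of the gene in replicate 2 and 6 in replicate 1. Opposite Slc25a36 there were 2 antisense reads in replicate 2 and 10 in replicate 1, while the gene's sense reads ran the other way, 37 in replicate 2 and 23 in replicate 1. Opposite Slc25a46 there were 3 in replicate 2 and 8 in replicate 1. These loci were chosen after their values were seen, and no test was run on them.

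The transcripts of 61 import and carrier genes were compared with those of other annotated genes. Of these, 17 had a match of at least 90% identity over 300 nt, and 8 had a match with reads. Genes annotated over the same bases were not left out, so these counts exceed those of separate copies. Among such overlapping genes were Nr1i3 (Tomm40l), Gm45799 (Timm10b), Gm21981 (Tomm6) and B930094E09Rik (Slc25a46). Of these, Gm45799, Gm21981 and B930094E09Rik had reads. Tomm20 had the most matches, 10 pseudogenes. One of them, Gm14494 (99.5% identical), had 1 read in replicate 2 and 8 in replicate 1. Tomm20 itself had 210 reads in replicate 2 and 242 in replicate 1.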
